A study of Mus musculus with 7 samples.

Results

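The sites at which the transcription factor CEBPB was listed in mouse dermal fibroblasts were compared before and after 3 h of thapsigargin. All 7317 peaks of the untreated CEBPB list and all 7861 peaks of the thapsigargin CEBPB list were taken, 15178 of the 25287 peaks listed for the 3 immunoprecipitations of the series. A peak was called kept when it shared at least 1 bp with a peak of the other list. The others were thapsigargin-only or untreated-only. The cells were primary dermal fibroblasts of female FVB/N mice, held for 8 days in DMEM/F12 medium with 10% serum, with no transgene or deletion named in the labels. Both immunoprecipitations used the C-19 antibody to CEBPB of 1 lot, and each condition had 1 library. RNA of both conditions (1 library each), ATF4 peaks of thapsigargin-treated cells and CpG methylation of untreated cells, pooled from 2 bisulfite libraries, were read at the same loci.

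CEBPB is a basic leucine zipper factor of the C/EBP family. As a homodimer, or paired with another C/EBP protein, it binds a near-palindromic element, and with ATF4 or CHOP it forms heterodimers that prefer a composite of a C/EBP and an ATF half-site. In fibroblasts it is known for driving inflammatory genes and the early steps of fat cell formation. Thapsigargin inhibits the SERCA pump, which loads the endoplasmic reticulum with calcium, and the stress that follows raises the translation of ATF4 while most translation is held back.

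The RNA held the markers of the fibroblast label: all 10 fibroblast markers were at 1 FPKM or more in untreated cells, where they summed to 16040 FPKM, and 9 of 10 in treated cells, where they summed to 4094 FPKM. Markers of macrophages and other leukocytes, all 6 at 1 FPKM or more in both libraries, summed to 1149 and 1180 FPKM. Of these, Lyz2, which encodes lysozyme of macrophages, was at 880 FPKM and 951 FPKM and made up most of both sums. Cd74, the invariant chain of MHC class II, was at 143 FPKM untreated and 5.61 FPKM treated, and Cd14 at 14.8 and 111 FPKM. The part of such cells in the peak lists was not tested. The 3 endothelial markers stayed under 1 FPKM in both libraries, and the 5 keratinocyte markers summed to 22.9 and 1.24 FPKM. The 4 muscle markers, all at 1 FPKM or more in both libraries, summed to 106 and 72.7 FPKM, and the 4 melanocyte and Schwann cell markers to 41.4 and 5.78 FPKM.

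With 1 library per condition, no difference below has a replicate check or a p-value, and the exact (Clopper-Pearson) 95% intervals cover counting error only. Peak scores ran from 50.03 to 1334 in the untreated list and from 2.03 to 222 in the thapsigargin list, so ranks were read within a list, and a difference between a site's ranks in the 2 lists is no measure of a change in binding. The thapsigargin peaks covered 1.5 Mb and the untreated peaks 3.46 Mb. A site absent from a list was below that list's threshold, which is not given in the sources used here, and the treatment cannot be told apart from a difference in depth or in peak calling between the libraries. FPKM values above and below are as deposited. Differences of single genes moved when set against genes of like splice junction density, and that comparison is given for few of them.

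The sequences below are examples from the higher ranks of each class, outside copied sequence (defined below). Most were picked because they hold a given element, so they do not show how common that element is in a class. Their place and methylation need not be typical of the class. Each is the central 120 bp of a peak on the plus strand of mm9, with C/EBP-type elements in capitals, found by search on both strands. The elements were the C/EBP 8-mer TTGCNNAA, whose palindrome TTGCGCAA holds a CpG, the C/EBP-ATF composite TGATGCAA, its CpG form CGATGCAA, and TGACGCAA, a chimera of a C/EBP and a CRE half-site. The reverse complements TTGCATCA, TTGCATCG and TTGCGTCA therefore mark the last 3, and TTNNGCAA the 8-mer. None of these 8-letter words can be an instance of another except that TTGCGCAA is a form of TTGCNNAA, but neighbouring elements can overlap.

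The first set was kept, high in 1 or both lists, and was picked for holding an 8-mer, a composite or a chimera.
Vmp1, untreated rank 1, chr11:86417413-86417532: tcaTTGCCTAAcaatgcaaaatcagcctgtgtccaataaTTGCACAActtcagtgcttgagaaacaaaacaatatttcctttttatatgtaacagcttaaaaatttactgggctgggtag
Btbd19, untreated rank 2, chr4:116793090-116793209: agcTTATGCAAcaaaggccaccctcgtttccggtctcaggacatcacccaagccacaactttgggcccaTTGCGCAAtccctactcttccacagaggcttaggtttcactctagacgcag
Htra1, thapsigargin rank 21, chr7:138086892-138087011: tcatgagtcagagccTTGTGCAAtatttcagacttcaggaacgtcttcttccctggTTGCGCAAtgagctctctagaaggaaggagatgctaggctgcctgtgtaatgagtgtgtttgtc
Wdr67, thapsigargin rank 5, chr15:57738378-57738497: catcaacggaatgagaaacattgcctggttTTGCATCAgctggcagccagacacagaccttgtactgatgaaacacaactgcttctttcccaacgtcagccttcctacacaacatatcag
Chac1, thapsigargin rank 76, chr2:119176691-119176810: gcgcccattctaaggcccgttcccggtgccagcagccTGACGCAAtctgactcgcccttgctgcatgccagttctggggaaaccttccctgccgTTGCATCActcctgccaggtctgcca
Vmp1 and Btbd19 carried C/EBP 8-mers in pairs, and at Btbd19 and Htra1 one of each pair was the CpG palindrome. The peak nearest Wdr67 carried the composite alone in the 120 bp printed, while the peak at the start of Chac1, a glutathione-degrading enzyme and classical ATF4 target, carried both the chimera and the composite.

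The second set was listed in untreated cells only and was picked for the C/EBP 8-mer. No composite stood in the 120 bp printed.
Smarca2, untreated rank 51, chr19:26822931-26823050: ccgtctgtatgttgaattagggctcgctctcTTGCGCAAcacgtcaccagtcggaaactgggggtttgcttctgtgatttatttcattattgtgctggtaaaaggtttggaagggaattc
Gbp2, untreated rank 52, chr3:142283222-142283341: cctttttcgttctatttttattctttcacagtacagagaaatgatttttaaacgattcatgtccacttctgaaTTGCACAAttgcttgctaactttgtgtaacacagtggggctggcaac
Smarca2 encodes an ATPase of the SWI/SNF chromatin remodeller and Gbp2 an interferon-induced GTPase. Both peaks lay within 1 kb of the gene's start, and their central CpGs were at 0% methylation.

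The third set was listed after thapsigargin only. The Scara5 and A830018L16Rik peaks were picked for the composite and held no 8-mer in the 120 bp printed. The Atxn1 peak was picked for holding no element. The central 200 bp of the A830018L16Rik peak also hold an 8-mer.
Scara5, thapsigargin rank 95, chr14:66315022-66315141: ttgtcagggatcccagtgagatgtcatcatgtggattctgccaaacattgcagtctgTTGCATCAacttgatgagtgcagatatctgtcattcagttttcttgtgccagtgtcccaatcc
A830018L16Rik, thapsigargin rank 109, chr1:11448515-11448634: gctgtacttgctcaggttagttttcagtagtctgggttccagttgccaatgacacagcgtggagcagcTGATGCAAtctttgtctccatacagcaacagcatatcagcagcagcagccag
Atxn1, thapsigargin rank 37, chr13:45879194-45879313: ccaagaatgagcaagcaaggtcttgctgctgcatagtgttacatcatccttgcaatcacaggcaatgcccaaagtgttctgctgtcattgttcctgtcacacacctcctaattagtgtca
The Scara5 and A830018L16Rik peaks were intronic, 19.8 and 44.0 kb from the nearest start, and their central CpGs were at 18% and 27.5% methylation. These were low for their kind, since thapsigargin-only peaks with the composite, outside copied sequence, had a median of 51%. The Atxn1 peak, also intronic, was at 62.8%.

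Of the thapsigargin peaks 1536 were kept, and of the untreated peaks 1531, or 20.9% (interval 20 to 21.9%). In 95.8% of the 1536 overlapping pairs the thapsigargin peak lay wholly inside the untreated one, and the centres were a median 37 bp apart. Kept peaks were concentrated at the top of both lists. In the untreated list 84 of the highest 100 peaks were kept, 341 of the highest 500 and 543 of the highest 1000, and from the highest to the lowest 25% of the scores the kept share went from 42.6% through 19.9% and 11.8% to 9.35%. In the thapsigargin list 58 of the highest 100 were kept. Of the 42 that were not, 33 lay in copied sequence. Copied means that at least 10% of the 24-mers of the central 200 bp recur exactly elsewhere in the genome, or that the peak was mitochondrial. Outside copied sequence 55 of 64 were kept (85.9%, interval 75 to 93.4%). The ranks of kept pairs ran together only loosely: 573 of 1536 pairs were in the top 25% of both lists, and Spearman's rho was 0.294, given as a description, since both ranks come from the same sites.

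**Figure D1:**
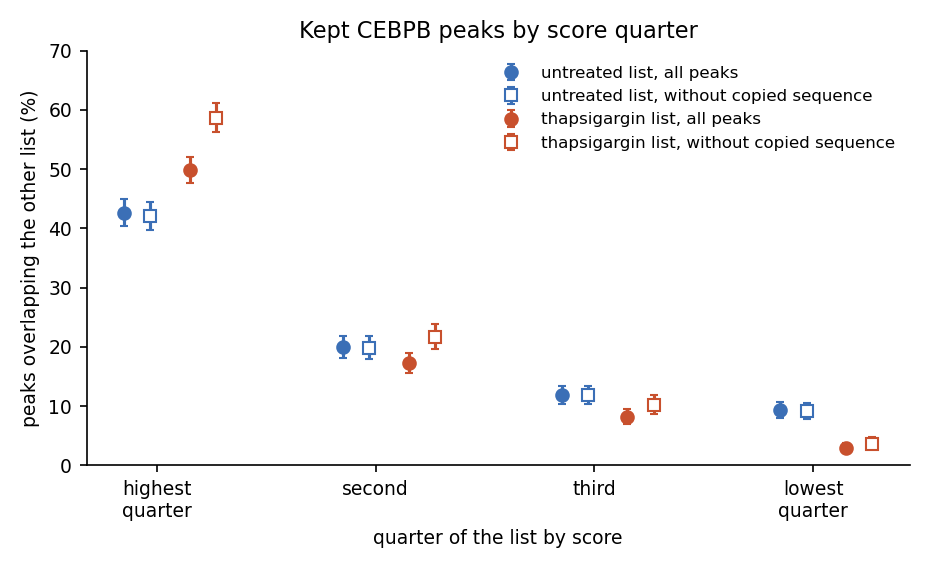
Share of peaks overlapping the other list (vertical axis, %) in each 25% of a list by score, for the untreated list (blue) and the thapsigargin list (orange). Filled circles are all peaks, open squares peaks outside copied sequence, and bars exact 95% intervals. In both lists the share is highest in the top 25%, 42.6% and 49.8% over all peaks, and lowest in the bottom 25%, 9.35% and 2.95%.

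The 10 highest peaks of untreated cells were all kept. The highest, nearest Vmp1, an autophagy membrane protein, was at rank 2147 of the thapsigargin list. The peak 1.85 kb upstream of Myc, the growth regulator, was at untreated rank 6 and thapsigargin rank 878. Others were near the top of both lists, with Htra1, a secreted serine protease, at ranks 5 and 21, Btbd19 at 2 and 34, Cdkl4 at 8 and 26, and the peak 26.2 kb upstream of Id3, an inhibitor of basic helix-loop-helix factors, at 9 and 19. Emilin2, an extracellular matrix glycoprotein, had its peak at ranks 3 and 260, and Nt5c2, a nucleotidase, at 4 and 370. The kept peaks highest in the thapsigargin list lay nearest Wdr67, Gm10322 and Sesn2, a stress-induced regulator of mTORC1, at ranks 5, 6 and 7. After these came Cotl1, a coactosin-like actin binder, and Irf2bp2, an IRF2 cofactor, at ranks 11 and 12. Rank 15 held the start of Nfe2l1, a bZIP factor that controls proteasome genes.

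The highest untreated-only peaks were further down the list, at ranks 48, 51, 52, 57 and 58, nearest Clvs1, Smarca2, Gbp2, Phldb2 and Rspo3, a secreted Wnt enhancer. The highest thapsigargin-only peaks were ranks 1, 2, 3, 4 and 8. Ranks 1, 2 and 8, nearest Gm5614, Ly6c2 and Gm10801, were copied sequence. Rank 3, in an intron of Cdk5rap2, had 9.6% of its 24-mers copied and was just under the threshold of 10%. Rank 4 was intronic and nearest Kctd16. Thapsigargin-only peaks lay in copied sequence in 1771 of 6325 cases (28.0%, interval 26.9 to 29.1%), against 73 of 1536 kept thapsigargin peaks (4.75%) and 244 of 5786 untreated-only peaks (4.22%). The results that follow are therefore given with and without copied sequence where that moves them. Without it, 24.3% of thapsigargin peaks were kept (interval 23.2 to 25.4%). Exact 24-mers miss diverged repeats, so the copied count is a lower limit.

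Few peaks of only 1 list had a peak of the other list close by. Of thapsigargin-only peaks, 6.34% had an untreated peak within 10 kb and 26.6% within 50 kb, and the median distance to one was 132 kb. Of untreated-only peaks, 9.70% had a thapsigargin peak within 10 kb and 38.2% within 50 kb, with a median of 75.4 kb. Kept peaks were nearest to genes: 16.4% of kept thapsigargin peaks touched the 1 kb around a gene start, against 9.83% of untreated-only and 6.85% of thapsigargin-only peaks.

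Elements separated the classes more sharply than position. The C/EBP 8-mer TTGCNNAA stood in the central 200 bp of 60.4% of untreated-only peaks (interval 59.1 to 61.6%) and 61.7% of kept thapsigargin peaks (59.2 to 64.1%), but of only 10.7% of thapsigargin-only peaks (9.97 to 11.5%). All 200-bp windows of chromosomes 1 to 19 and X held it in 9.35% of cases, and windows 5 kb from the peaks in 8.35%, 7.16% and 8.62%. Without copied sequence the share of thapsigargin-only peaks was 12.8%, and in the highest 25% of scores 17.2% (interval 14.4 to 20.3%), against 72.2% for untreated-only peaks of the highest 25%. The match is a description of the letters and not a bound site, and 1 that is absent from a window says nothing of the factor.

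The composite TGATGCAA followed another order. It stood in 13.9% of kept thapsigargin peaks (interval 12.2 to 15.8%), 6.13% of thapsigargin-only peaks (5.56 to 6.75%) and 4.84% of untreated-only peaks (4.30 to 5.42%), with 0.620% of all windows holding it. Among peaks outside copied sequence it was densest at the top of the thapsigargin list. In the highest 25% of scores 21.6% of thapsigargin-only peaks held it (142 of 657, interval 18.5 to 25%). Of kept peaks there, 17.1% did (160 of 934). In the lowest 25% the shares were 2.56% and 7.55%, the latter only 4 of 53 peaks (interval 2.09 to 18.2%). Ranked by the untreated list, kept peaks held it in 9.64% of the highest and 18.4% of the lowest 25%. Untreated-only peaks held it in 4.09% of the highest and 5.59% of the lowest 25%. The AP-1 element TGANTCA, bound by FOS and JUN dimers, stood in 20.9% of kept thapsigargin peaks, 16.8% of untreated-only and 9.17% of thapsigargin-only peaks, or 11.1% of the last without copied sequence. Outside copied sequence it stood in 19% of thapsigargin-only peaks of the highest 25%, in 21.5% of kept and in 17.4% of untreated-only ones, against 5.93% of all windows. The chimera TGACGCAA stood in 3.91% of kept thapsigargin peaks, 1.28% of untreated-only and 0.964% of thapsigargin-only peaks, against 0.0504% of all windows.

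**Figure D2:**
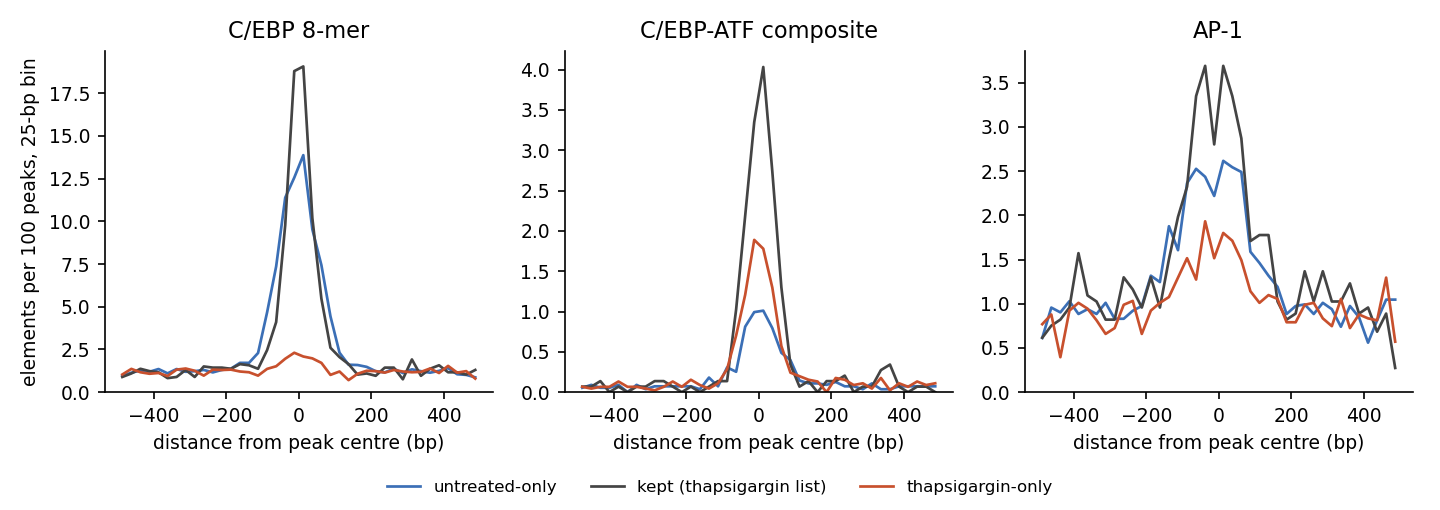
Elements per 100 peaks in 25-bp bins (vertical axis) by distance from the peak's centre in bp (horizontal axis), outside copied sequence, in 1 panel per element and with 1 line per class of peak. The C/EBP 8-mer rises at the centre of untreated-only and kept peaks and far less in thapsigargin-only peaks, whose central 200 bp hold it in 12.8% of cases, and the composite rises most at the centre of kept peaks, then of thapsigargin-only and least of untreated-only peaks.

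The CpG form of the C/EBP palindrome, TTGCGCAA, was held by a larger share of kept peaks than of the others. It stood in 9.05% of kept thapsigargin peaks (interval 7.66 to 10.6%), 2.66% of untreated-only and 0.680% of thapsigargin-only peaks, against 0.0161% of all windows. Counted per 100 peaks outside copied sequence, TTGCACAA, the commonest form of the 8-mer, was found 16.6 times in untreated-only, 21.7 times in kept and 2.48 times in thapsigargin-only peaks. TTGCGCAA was found 2.67, 9.02 and 0.769 times. Of the untreated peaks with TTGCGCAA, 132 of 286 were kept (46.2%, interval 40.3 to 52.1%), against 20.8% of those with any TTGCNNAA and 16.7% of those with no C/EBP-type element. The composite gave 41.4% (198 of 478, interval 37.0 to 46.0%) and the chimera 43.5% (57 of 131, interval 34.9 to 52.4%). From the side of the thapsigargin list, 76.4% of the peaks with TTGCGCAA were already listed in untreated cells (139 of 182), 58.3% of those with TTGCNNAA, 35.5% of those with the composite (214 of 602) and 6.71% of those with none (376 of 5601). For the chimera it was 49.6% (60 of 121). Among these 4 elements the composite had the lowest share of thapsigargin peaks already listed, while the AP-1 element was level with it at 35.6%. Peaks with an element were also higher ranked. Within the top 25%, without copied sequence, the shares in the thapsigargin list were 83.9% for TTGCNNAA, 53% for the composite and 32.4% for none.

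**Figure D3:**
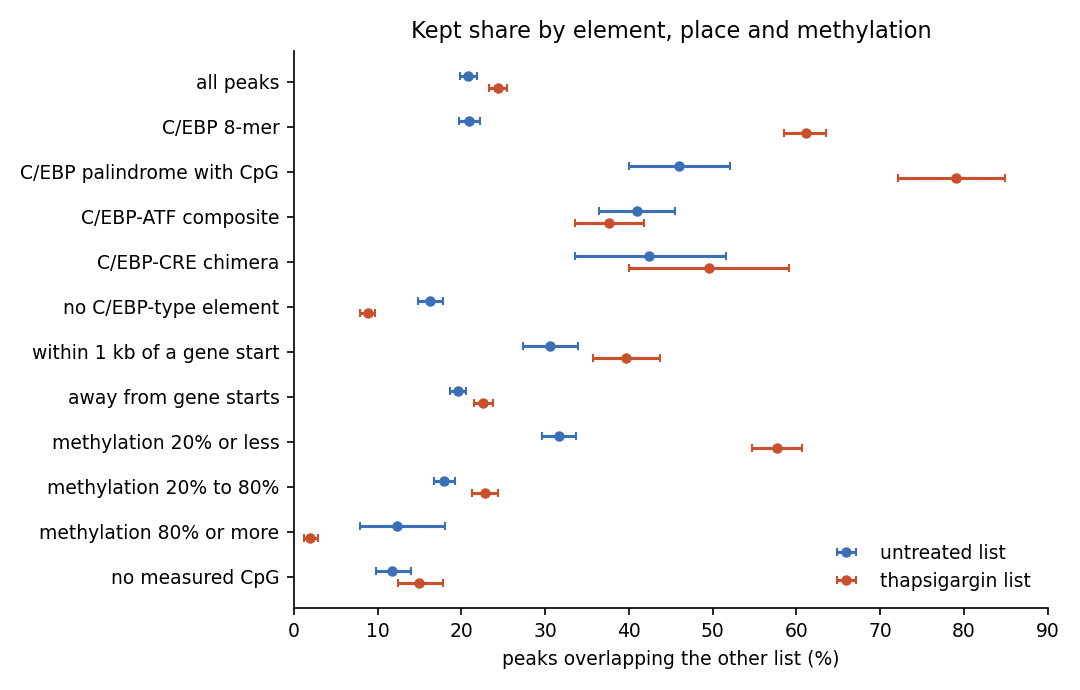
Share of peaks overlapping the other list (horizontal axis, %) by the element in the central 200 bp, by place and by methylation of untreated cells, outside copied sequence. Points are the untreated list (blue) and the thapsigargin list (orange), and bars are exact 95% intervals. The C/EBP palindrome with a CpG has the highest share in both lists, 46.0% and 79.0%, and methylation of 80% or more the lowest in the thapsigargin list, 1.91%.

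The DNA of untreated cells was less methylated where peaks were kept. The median CpG methylation of the central 200 bp was 21.4% in kept thapsigargin peaks, 33.5% in untreated-only peaks and 69.3% in thapsigargin-only peaks, while windows 5 kb away had medians of 79.3%, 78.1% and 76.3% and all CpGs 76%. The values came without coverage, so these percents carry no interval. Thapsigargin-only peaks of the highest 25% of scores, without copied sequence, had a median of 44.7%. Those with the composite, at any score, had 51%. Of the 1591 thapsigargin peaks at 80% methylation or more, 22 were already listed in untreated cells (1.38%, interval 0.869 to 2.09%). Of the 1248 at 20% or less, 672 were (53.8%, interval 51.0 to 56.6%). Only the untreated state of the DNA was measured, and at gene starts the medians of all classes were low, at 0.225%, 4.5% and 3.25%. Away from starts they were 25.6% in kept, 35.7% in untreated-only and 71% in thapsigargin-only peaks.

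The CpG within an element could be read on its own. Outside copied sequence, the CpG of TTGCGCAA had a median methylation of 48% over the 132 such sites in kept thapsigargin peaks, 74.5% over the 148 in untreated-only peaks and 86% over the 35 in thapsigargin-only peaks, against 88% over all such sites measured in the genome. The CpG of the chimera TGACGCAA was at 10.5% in kept thapsigargin, 50.3% in untreated-only and 33.5% in thapsigargin-only peaks, against 83.5% in the genome. The TTGCGCAA CpG thus stood above its surroundings, since the windows of kept thapsigargin peaks that hold it had a median of 30.1%.

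**Figure D4:**
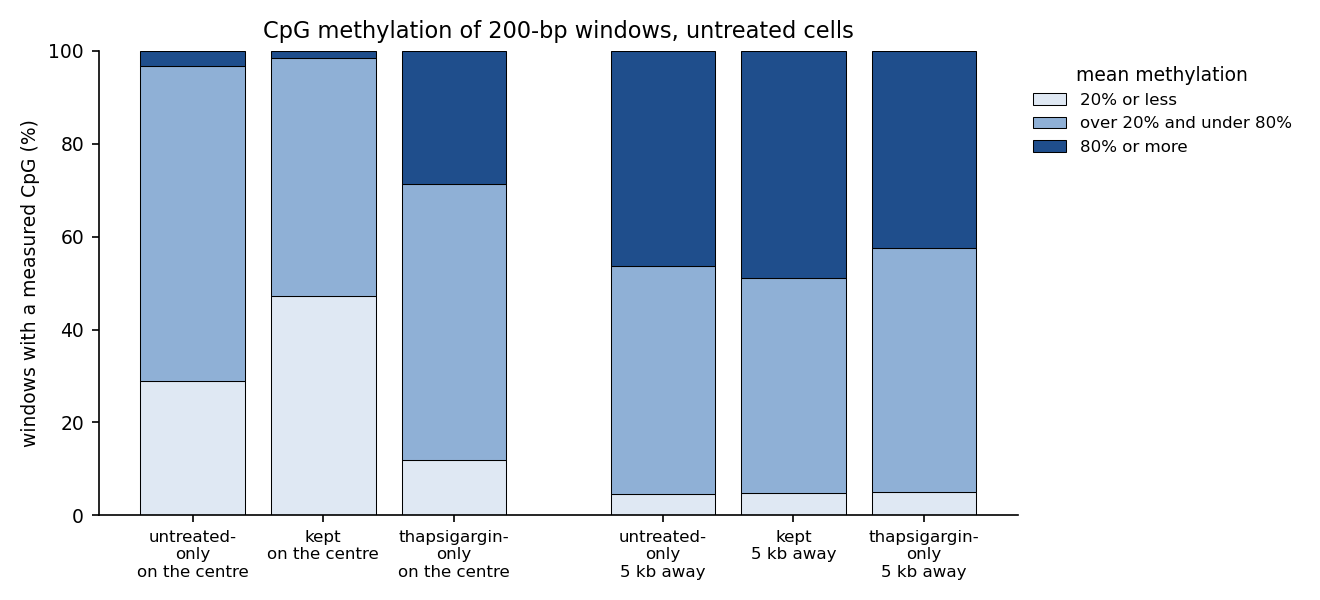
Share of 200-bp windows with a measured CpG (vertical axis, %) whose mean methylation in untreated cells was 20% or less, between, or 80% or more, on the centre of each class of peak and 5 kb away, outside copied sequence. Thapsigargin-only centres resemble their flanks more than the other classes do, with a median of 68% on the centre, against 21.5% in kept peaks.

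ATF4 peaks of thapsigargin-treated cells overlapped 6.51% of kept thapsigargin peaks and 5.83% of thapsigargin-only ones, but 1.31% of untreated-only ones (intervals 5.33 to 7.86%, 5.27 to 6.44% and 1.04 to 1.64%). Without copied sequence the share of thapsigargin-only peaks was 3.01%. At gene starts the overlap was 28.2%, 26.1% and 11.6%. Outside copied sequence and by element, the overlap among thapsigargin-only peaks was highest with the chimera, at 17 of 57 (29.8%), and was 9 of 346 (2.60%) with the composite. In kept thapsigargin peaks, also outside copied sequence, it was 25% with the chimera and 14.8% with the composite. Chimera peaks lay at gene starts in 40.4% of thapsigargin-only and 39.3% of kept cases, composite peaks in 9.54% and 18.2%. Element and place were not told apart here.

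Genes were tied to peaks within 25 kb of any of their starts, by which a peak can count for several genes. Of 22352 genes, 19.1% had an untreated peak, 19.8% a thapsigargin peak and 5.61% a kept peak. By list, 8.18% had peaks of both lists, 11.6% thapsigargin peaks only, 11% untreated peaks only and 69.2% no peak. The gene lists below are read against these shares and carry no test.

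Targets of ATF4 and CHOP, the transcription factor that Ddit3 encodes, held the highest shares with a thapsigargin peak and with a kept peak in the plot of gene lists. Of 25, 15 had an untreated peak, 19 a thapsigargin peak and 12 a kept peak, 5 had thapsigargin peaks only and 1 untreated peaks only. Ddit3 had 2 kept peaks that ATF4 also overlapped, at its start (ranks 6035 and 2372) and 21.0 kb downstream, near Mars (ranks 5313 and 3126), and another in untreated cells only. The peak at the start of Chac1 was at rank 1525 of the untreated list and rank 76 of the thapsigargin list. That of Atf3, a stress-induced bZIP repressor, was at ranks 1845 and 436, and both overlapped ATF4. Nupr1, a stress-induced chromatin protein, kept a composite peak at its start, at ranks 4200 and 1435. Slc7a11, the cystine transporter subunit, kept one with the 8-mer and the composite at ranks 2733 and 777, and Gdf15, a stress cytokine, kept one with the chimera at ranks 3522 and 648. Vldlr, a lipoprotein receptor, had a thapsigargin-only peak at its start at rank 346 with the composite and an ATF4 peak, and kept another 22.0 kb inside, at ranks 1029 and 146. In the RNA, Chac1 was at 16.8 FPKM untreated and 168 FPKM treated, Ddit3 at 82.9 and 735 FPKM, and Atf3 at 13.3 and 59.9 FPKM.

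The synthetases that load amino acids onto tRNAs in the cytosol, several of them known ATF4 targets, had untreated peaks at 10 of 21 genes, thapsigargin peaks at 15 and kept peaks at 8, with 6 genes in the thapsigargin list only and 1 in the untreated list only. The peak 0.943 kb inside Sars was at rank 606 of the untreated and rank 46 of the thapsigargin list, that at the start of Aars at ranks 1556 and 440, and Wars had a thapsigargin-only peak with the composite at its start, at rank 1504, and 3 untreated-only peaks. The RNA did not go 1 way: Sars was at 86.1 FPKM untreated and 34.9 treated, Aars at 89.6 and 56.0, and Wars at 24.4 and 37.7. Set against genes of like splice junction density, their log2 differences were -0.81, -0.12 and 1.16, in place of -1.28, -0.67 and 0.61.

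Chaperones and degradation factors of the endoplasmic reticulum had peaks at 11 and 13 of 30 genes, 7 of them kept. Hspa5, which encodes the chaperone BiP, kept a composite peak 1.7 kb upstream of its start at ranks 1274 and 188, where the measured CpGs were at 69.5% methylation, and had 2 further thapsigargin-only peaks at ranks 7088 and 7504. Its RNA was at 354 FPKM untreated and 4978 FPKM treated. Edem1, a factor of glycoprotein degradation, kept 2 peaks, 1 at ranks 332 and 2249 and the other at ranks 1937 and 202. Xbp1, the transcription factor spliced by IRE1, kept a peak with the chimera at its start at ranks 2280 and 5707. Amino acid transporters had untreated peaks at 11 of 20 genes, thapsigargin peaks at 8 and kept peaks at 6, among them Slc7a1, Slc7a5 and Slc7a6. Slc1a3, a glutamate transporter, kept 2 peaks, the higher with a CpG palindrome at ranks 67 and 106, and had 2 more in treated cells only.

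The bZIP factors themselves, with 18 of 30 genes near an untreated peak and 14 near a thapsigargin peak, were split. Cebpb had no kept peak. Its untreated peak lay 21.9 kb downstream of the start at rank 5636, and its thapsigargin peaks at 1.2 kb, with the composite, the chimera and an ATF4 peak, at rank 1578, and 21.3 kb upstream at rank 3551. Cebpg had 1 peak per list within 1 kb of its start that did not overlap. Atf4 had an untreated peak at rank 6227 only, and Cebpa and Cebpd had none. Cebpb RNA was at 33.4 and 211 FPKM and Cebpd RNA at 25.7 and 145 FPKM. Nfe2l2, the NRF2 regulator of antioxidant genes, kept 2 peaks, the one near its start at ranks 55 and 1184 and another at ranks 1094 and 343. Of the p53 and GADD45 genes, Bbc3, a pro-apoptotic BCL2 family member, had 1 kept and 3 thapsigargin-only peaks, and Gadd45a 3 thapsigargin-only peaks, at ranks 1124, 1256 and 6103, and an untreated-only one at rank 7201.

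Of the inflammatory gene lists, the IL6 and IL1 families and the acute phase genes had more genes in the untreated list alone than in the thapsigargin list alone. Of 22 genes of the IL6 and IL1 families and their receptors, 12 had an untreated peak, 7 a thapsigargin peak and 2 a kept one, with 8 in the untreated list only and 3 in the thapsigargin list only. Without copied sequence 4 had a thapsigargin peak. Acute phase and innate defence genes had 9, 3 and 3 of 25, with 6 in the untreated list only and none in the thapsigargin list only. Chemokines had 15, 11 and 7 of 32, with 8 in the untreated list only and 4 in the thapsigargin list only, and without copied sequence 8 and 6. Il6 had 1 peak at its start at rank 2351, with a C/EBP 8-mer, in untreated cells only, and RNA at 1.63 FPKM untreated and 30.7 treated. Ccl2, a monocyte chemoattractant, had 1 untreated-only peak 3.7 kb downstream of its start at rank 642, which Ccl11 shares, and RNA at 76.0 and 2118 FPKM. Socs3 and Socs2, feedback inhibitors of cytokine signalling, had 3 untreated peaks each and none after thapsigargin, with RNA at 14.4 and 79.2 FPKM and at 15.2 and 96.2 FPKM. Cxcl5, a neutrophil chemokine, and Il1r1, the interleukin 1 receptor, also had 3 each that were not listed again, Il16 had 4, and Saa3, an acute phase protein, had 1. The RNA of Il6, Ccl2, Socs2, Socs3, Cxcl5, Il1r1 and Saa3 was higher in the treated library, where no CEBPB peak near them reached the list's unknown threshold. Cp, an acute phase gene with 2 untreated-only peaks, had a log2 difference of -0.39. Set against genes of like splice junction density it was 0.34, so its direction depended on the comparison. Lcn2 and Rcan1 had no peak in either list.

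Others of these genes kept their peaks. Ptgs2, which encodes the inducible cyclooxygenase, kept the peak at its start, with a CpG palindrome at 0.45% methylation in the window, at ranks 89 and 249, and its RNA was at 6.53 and 102 FPKM. Prostaglandin and bradykinin genes had kept peaks at 5 of 16 genes. Tnfaip6, an anti-inflammatory hyaluronan binder, kept its start peak at ranks 105 and 582, Cd14, the lipopolysaccharide co-receptor, kept 2, and Hmox1, haem oxygenase, kept 2 of 3. All 3 untreated peaks within 25 kb of Cxcl9, an interferon-induced chemokine, were kept, in a region that also holds Sdad1.

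Matrix genes leaned to the untreated list. Collagens had untreated peaks at 10 of 31 genes and thapsigargin peaks at 7, with 2 kept, and without copied sequence 9 and 7. Proteoglycans, fibulins and glycoproteins had 13 and 6 of 32, with 4 kept and 9 in the untreated list only. Matrix metalloproteinases and inhibitors had 8 and 4 of 24. Outside the matrix genes, the Kruppel-like transcription factors had 8 and 3 of 17. Fbln1, a fibulin of the matrix, kept its peak 18.0 kb upstream at ranks 113 and 66, and its RNA was at 108 and 19.7 FPKM. Col3a1 kept a peak at ranks 2387 and 626, Col1a1 had 1 untreated-only peak at rank 5616 and Col1a2 3 thapsigargin-only peaks, none with a C/EBP-type element. Col1a1 RNA was at 6473 and 884 FPKM. Set against genes of like splice junction density, its log2 difference was -1.22 in place of -2.87, and that of Fbln1 -1.55 in place of -2.39. Of the fibroblast markers 9 of 15 had an untreated and 5 a thapsigargin peak.

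In some families more genes had a thapsigargin than an untreated peak, while over all genes the shares were 19.8% and 19.1%. Olfactory receptors had untreated peaks at 19 of 1113 genes and thapsigargin peaks at 109 (9.79%, under the share of all genes), 2 of them kept. Without copied sequence the numbers were 13 and 74, or 6.65% for thapsigargin peaks against 16.2% of all genes. Clustered protocadherins had 2 and 10 of 24 genes, and without copied sequence 2 and 3. Forkhead factors had 3 and 11 of 43 (6.98% and 25.6%). Of them 8 were in the thapsigargin list only (18.6%, against 11.6% of all genes) and none in the untreated list only (against 11%). The forkhead numbers were the same without copied sequence. Hox genes had 8 and 14 of 40, from 3 and 5 distinct peaks, where 1 kept peak counts for Hoxb7, Hoxb8 and Hoxb9. Cell cycle and mitosis genes had 4 and 9 of 25 and without copied sequence 4 and 6. Ccnd2, a D-type cyclin, had 3 thapsigargin-only peaks, at ranks 291, 1296 and 5559, the first with the composite, the second with the chimera. None of the 12 skeletal muscle markers had a peak in either list.

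**Figure D5:**
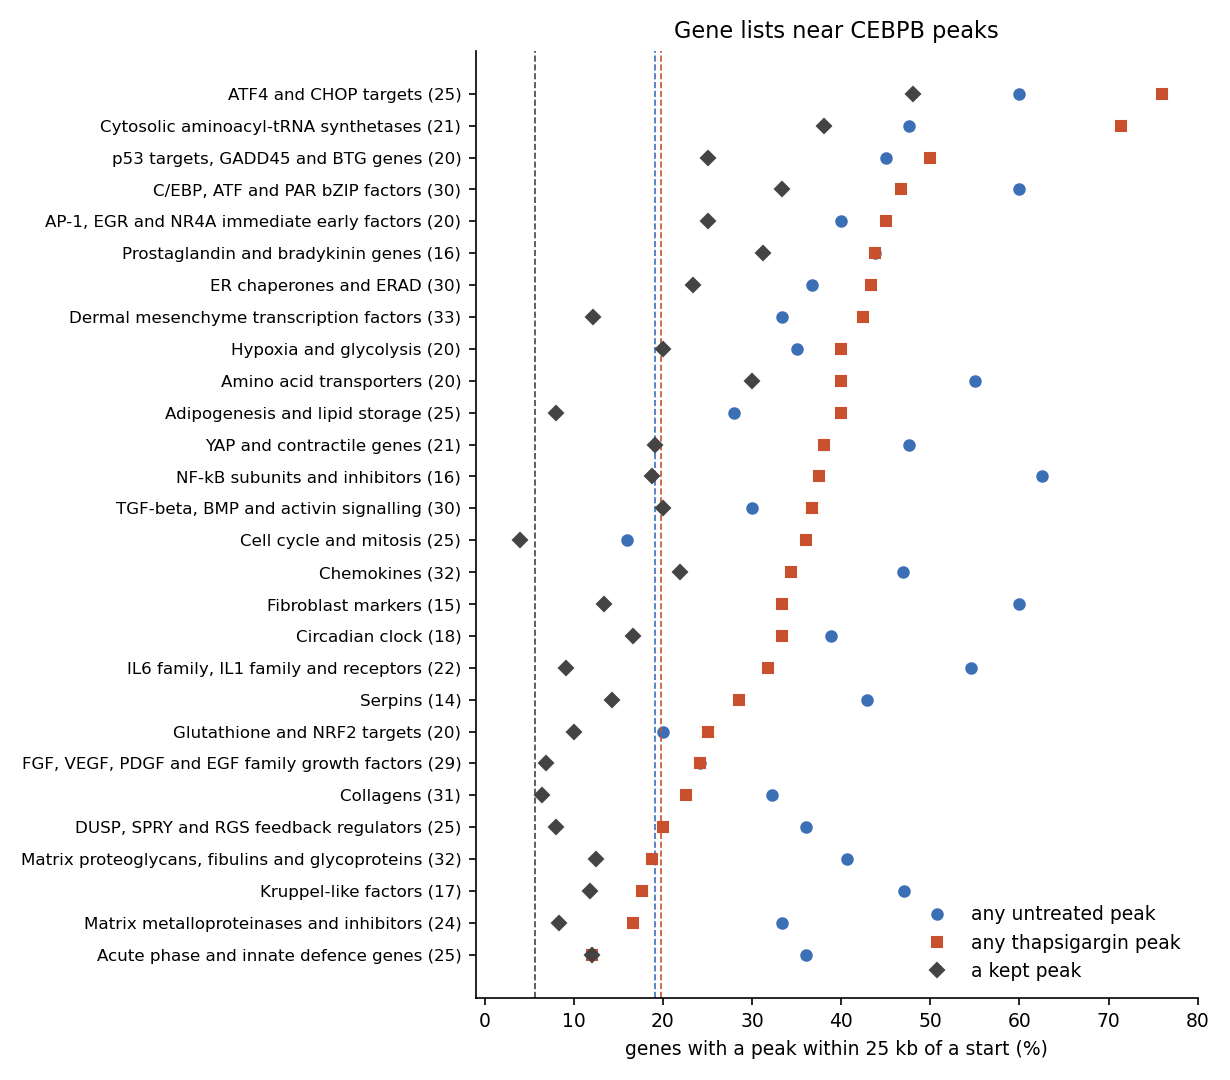
Share of the genes of each list with an untreated peak (blue circles), a thapsigargin peak (orange squares) and a kept peak (grey diamonds) within 25 kb of a start (horizontal axis, %). The number of genes stands in brackets, and dashed lines are the shares of all genes, 19.1%, 19.8% and 5.61%. Only symbol lists of 14 or more genes are drawn. Cell type marker lists other than that of fibroblasts are left out, among them the 14 macrophage and leukocyte markers. The ATF4 and CHOP targets and the aminoacyl-tRNA synthetases stand at the top for thapsigargin and kept peaks, and most lists drawn lie above the dashed lines.

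Peaks rarely formed clusters. Joined across gaps of up to 10 kb, with a kept pair counted as 1 site, the 2 lists gave 12262 regions, of which 43 had 4 or more sites: 19 with thapsigargin peaks only, 4 with untreated peaks only, 16 of both lists with a shared site and 4 of both without. Among kept thapsigargin peaks 78.5% stood alone, as did 77.6% of untreated-only and 86.5% of thapsigargin-only peaks. Within single lists, 16 untreated and 20 thapsigargin regions had 4 or more peaks, and outside copied sequence 15 and 3.

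The 2 largest regions held thapsigargin-only peaks alone. A stretch of 72.3 kb at chr11:3027009-3099275, over the start of Sfi1, a centrosome gene, held 30 peaks, 10 of them copied. Regions at chr9:2999945-3038325 held 17 peaks, all copied, and at chr8:19918452-19984742 13 peaks beside 1 untreated-only peak, all copied. The mitochondrial genome held 10 peaks in the thapsigargin list and none in the untreated list. By contrast the region at chr7:38962235-38986216, which holds the start of 1600014C10Rik, had 6 thapsigargin-only peaks, none copied.

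The largest region of both lists outside copied sequence lay over Nfil3, which encodes a bZIP repressor (E4BP4), at chr13:53071939-53083229, with 6 sites over 11.3 kb. One was kept, 4 were untreated-only and 1 was thapsigargin-only. The kept site, the palindrome site at the start and the thapsigargin-only site show how they differ.
Nfil3 kept, ranks 117 and 175, chr13:53072188-53072307: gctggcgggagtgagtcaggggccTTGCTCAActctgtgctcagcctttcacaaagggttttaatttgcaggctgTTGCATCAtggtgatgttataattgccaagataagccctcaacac
Nfil3 untreated-only, rank 376, chr13:53076657-53076776: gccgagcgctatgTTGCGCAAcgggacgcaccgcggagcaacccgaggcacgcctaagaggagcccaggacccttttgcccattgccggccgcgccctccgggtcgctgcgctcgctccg
Nfil3 thapsigargin-only, rank 7457, chr13:53083092-53083211: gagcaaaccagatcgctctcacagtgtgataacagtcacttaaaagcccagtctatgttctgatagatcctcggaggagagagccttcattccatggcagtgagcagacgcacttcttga
The kept site, 4.19 kb inside the gene, held an 8-mer and a composite and was at 1.67% methylation. The untreated-only peaks ranked 376 and 6071 held CpG-bearing 8-mers near the start, and that ranked 1119 an 8-mer without a CpG. That ranked 3527 held an 8-mer in its central 200 bp but none in its central 120 bp. The thapsigargin-only peak, 6.71 kb upstream, had no element and was at 77% methylation. Nfil3 RNA was at 24.2 FPKM untreated and 203 FPKM treated.

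Other regions had the same mixed form. Around Vmp1 4 untreated peaks, 1 of them kept, stood with a further thapsigargin-only peak. In Emilin2, Rbms1 and Galntl5, 2 of 4 untreated peaks were kept, and in Mitf, a regulator of melanocytes, 1 of 4. Untreated-only regions of 4 peaks lay in Slc16a10, an amino acid transporter, near Haao and 2610203C20Rik, and in Gm20388. Of single genes, Amotl2, a YAP-binding junction protein, had 6 untreated peaks and 1 kept, that being the one with the composite, at ranks 4184 and 1055. Itga8, an integrin, likewise had 6 and kept the composite peak, at ranks 3565 and 393. Smad3, a TGF-beta effector, had 5 untreated and 3 thapsigargin peaks, with 1 kept at ranks 508 and 323.

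The median RNA difference between the libraries was much the same in the groups of genes defined by the peaks, while the share of genes higher in treated cells was largest near peaks of both lists. Of the 11556 genes that reached 1 FPKM untreated or treated, 5.6% had a log2(FPKM + 1) higher by 1 or more in treated cells, and 28.5% had one lower by 1 or more. The share that was higher was 8.12% of the 1391 genes with peaks of both lists, 5.23% of the 1434 with thapsigargin peaks only, 6.12% of the 1698 with untreated peaks only and 5.05% of the 7033 with none. Set against genes of like splice junction density, the shares were 14.5%, 12%, 12.3% and 10.9%. The median log2 differences were -0.47, -0.52, -0.54 and -0.55, against -0.53 for all, and on the same junction comparison they were 0.012, 0.032, -0.012 and -0.0025. Genes at 1 FPKM or more made up 82.1%, 61.8%, 75.1% and 52.5% of the measured genes of these groups.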

How the data were processed

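CEBPB and ATF4 were immunoprecipitated, RNA was sequenced and CpG methylation was measured in dermal fibroblasts. Per the submitters' processing notes, CASAVA 1.7, BWA and SAMtools were used for immunoprecipitation, CASAVA 1.8.2 and Bowtie for RNA, and CASAVA 1.8 and Novoalign for bisulfite reads, on mm9. Peak names in the deposited CEBPB lists start with MACS, a peak caller, while its version, control and threshold, and the read depth of these libraries, are not stated. The lists hold 1 score for each peak, deposited by the authors with no unit. RNA values were FPKM per gene as deposited by the authors. Methylation was a percent per cytosine deposited by the authors, pooled over 2 libraries and without coverage, so no coverage minimum could be set. Entries marked as heterozygous were left out.

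Peaks were compared by overlap of at least 1 bp, with gene starts and sequence from GENCODE vM1 on NCBIM37, which is mm9, in Python with numpy 2.4.6, scipy 1.17.1 and pandas 2.3.3. Cebpd and Cxcl11 were added to the protein-coding genes. RNA was compared as log2(FPKM + 1), which understates the change of low genes. With 1 library per condition no test was possible. The overlap, element and cluster steps were tested on simulated peaks. The members and gene lists were chosen with earlier results of these data known. Named genes were those nearest the 10 highest peaks of each list and the 5 highest kept, thapsigargin-only and untreated-only peaks, those at the largest regions, up to 4 members per gene list with the most peaks, and 16 fixed genes. Scara5, A830018L16Rik, Atxn1, Sdad1, Nfe2l1 and the regions and peaks picked outside copied sequence were chosen after their values were seen. Alternatives were other overlaps, distances, gaps, windows, score limits, pseudocounts and filters. Leaving out copied sequence and the junction comparison were chosen after seeing the data.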

Additional observations from a re-analysis of the deposited data

How the results depend on the processing

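No paired analysis was possible because each condition had 1 CEBPB library and 1 RNA library, and for the same reason no library could be left out. Over 18 results, 29 of 75 values under other settings stayed within the interval of the reported value, or within 1.5 times of a count, and 46 did not. The kept shares were within their intervals under other rules of overlap and moved with rank: in the upper 50% of each list 25.4% of thapsigargin and 27.2% of untreated peaks were kept, in the upper 25% 29.1% and 31.2%, and without copied sequence 24.3% of thapsigargin peaks.

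Counts followed the distance and the list's length. Within 10 kb, 1439 genes had thapsigargin peaks only, 1594 untreated peaks only and 847 both, within 50 kb 3503 had both, and with the upper 50% of each list the numbers were 1469, 1445 and 1005. Regions of 4 or more sites numbered 21 with gaps of 5 kb, 174 with 25 kb, 21 in the upper 50% and 21 without copied sequence.

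The C/EBP 8-mer share in the central 100 bp was 50.3% in kept, 6.23% in thapsigargin-only and 41.6% in untreated-only peaks. Over whole peaks it was 9.93% and 67.7% in the last 2, and in the upper 50% 67.4%, 16.0% and 66.3%. Without copied sequence it was 12.8% in thapsigargin-only peaks. The composite share was 11.2%, 4.51% and 3.37% in 100 bp, 5.86% over whole untreated-only peaks, 11.2% in thapsigargin-only and 4.24% in untreated-only peaks of the upper 50%, and 7.60% in thapsigargin-only peaks without copied sequence. The order of the classes was the same in each of these for the 8-mer in thapsigargin-only against the others.

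Median methylation of whole peaks was 22% in kept, 69.3% in thapsigargin-only and 41.1% in untreated-only peaks. It was 33.5% in the central 200 bp of untreated-only peaks, 18.8%, 57.3% and 37.5% in the upper 50%, and 68% in thapsigargin-only peaks without copied sequence. The median RNA differences for genes near peaks of both lists, of the thapsigargin list only and of the untreated list only were -0.54, -0.64 and -0.64 with a pseudocount of 0.1, -0.31, -0.10 and -0.27 with no filter, and 0.012, 0.032 and -0.012 against genes of like junction density. The cause of these shifts was not tested.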

Other observations

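Further families were counted in the same way. Of all genes, 19.1% had an untreated, 19.8% a thapsigargin and 5.61% a kept peak, and 11.6% had thapsigargin peaks only. NF-kB subunits and inhibitors had untreated peaks at 10 of 16 genes and thapsigargin peaks at 6, with none in the thapsigargin list only. Bcl3, a nuclear IkB protein, kept a peak at ranks 784 and 385, and Tnfaip3, an inhibitor of NF-kB signalling, kept one of its 2. Semaphorins, guidance ligands, had untreated peaks at 8 of 20 genes (40%) and thapsigargin peaks at 4, none of them kept. The latter share, 20%, was near that of all genes. Genes of fat cell formation and lipid storage had untreated peaks at 7 of 25 and thapsigargin peaks at 10, with 2 kept. Plin2, a lipid droplet coat protein, kept its peak at ranks 266 and 1922, while Cd36, a fatty acid transporter, had 2 untreated-only peaks. IGF binding proteins and receptors had untreated peaks at 7 of 10 genes and thapsigargin peaks at 4. Igfbp4 had 3 thapsigargin-only peaks, and 1 kept peak counts for both Igfbp2 and Igfbp5.

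On the X chromosome the untreated list had 95 peaks and the thapsigargin list 191, or 1.3% and 2.43% of the lists, and 17 peaks of each were kept. Copied sequence held 8 of the 95 (8.42%) and 69 of the 191 (36.1%).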
